A study of Mus musculus with 43 samples.

Results

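The 10 genes described here mark the epicardium, the sheet of mesothelial cells that covers the heart, and the mesothelium of other body cavities. They are Upk1b, Upk3b, Wt1, Msln, Krt8, Krt18, Krt19, Lrrn4, Tbx18 and Aldh1a2. They were chosen by gene symbol, and all 10 were found, each as 1 row, among the 57010 rows of a count table keyed by Ensembl ID. The study sequenced bulk RNA of 43 libraries from mouse hearts, either whole or as endothelial cells (EC) and cardiomyocytes (CM) isolated from the heart. Wild-type animals were set against animals with Vegfa Q150X, an allele with a premature stop codon made by CRISPR/Cas9 editing as a model of a human stop-gained variant of VEGFA, in uninjured hearts (called homeostasis) and after myocardial infarction (MI). The whole hearts were 3 wild-type and 3 Q150X libraries at homeostasis, 4 and 4 on day 7 after MI, and 3 and 4 on day 30. The EC libraries were 3 and 3 at homeostasis and 2 and 2 on day 3, and the CM libraries were 3 and 3 at each of these times. The library names give the Q150X genotype only as HO. The sources used here do not give the strain, the age, the number of animals behind a library or the way the cells were isolated, so p-values measure the spread between libraries, which may be technical. No sham-operated group was analysed here, so infarction and surgery cannot be told apart.

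In the embryo the epicardium is a source of fibroblasts and of mural cells of the coronary vessels, and it secretes retinoic acid and growth factors to the muscle beneath it. In the adult it is a thin, quiet layer that is known to become active again after injury. Upk1b (ENSMUSG00000049436) and Upk3b (ENSMUSG00000042985) encode uroplakins, plaque proteins of the bladder lining that mesothelial cells share, and Msln (ENSMUSG00000063011) encodes mesothelin, a surface protein of mesothelium. Krt8 (ENSMUSG00000049382), Krt18 (ENSMUSG00000023043) and Krt19 (ENSMUSG00000020911) encode keratins of simple epithelia, with Krt8 and Krt18 pairing in 1 filament. Lrrn4 (ENSMUSG00000043110) encodes a membrane protein with leucine-rich repeats. Wt1 (ENSMUSG00000016458) and Tbx18 (ENSMUSG00000032419) encode transcription factors of the embryonic epicardium, and Wt1 is known to be expressed by cardiac endothelial cells too. Aldh1a2 (ENSMUSG00000013584) encodes retinaldehyde dehydrogenase 2, which makes retinoic acid.

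The sequence upstream of the transcription start is shown for the 2 pairs of genes whose levels ran most closely together among those with an entry in the RefSeq promoter table (build GRCm38.p6). Of the 10 genes, 6 had an entry (Aldh1a2, Krt18, Krt8, Lrrn4, Tbx18 and Upk3b). Each sequence is the 250 bases before the start, read 5′ to 3′ on the gene's strand, and capitals mark a motif that was found. The intervals are chr5:136038246-136038495 on the plus strand for Upk3b, chr2:132880863-132881112 on the minus strand for Lrrn4, chr15:102004343-102004592 on the minus strand for Krt8 and chr15:102027966-102028215 on the plus strand for Krt18.
Upk3b: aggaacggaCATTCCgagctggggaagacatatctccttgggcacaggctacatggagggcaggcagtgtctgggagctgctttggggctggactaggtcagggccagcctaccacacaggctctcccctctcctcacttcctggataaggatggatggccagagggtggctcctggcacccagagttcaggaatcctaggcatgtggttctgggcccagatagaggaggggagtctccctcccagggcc
Lrrn4: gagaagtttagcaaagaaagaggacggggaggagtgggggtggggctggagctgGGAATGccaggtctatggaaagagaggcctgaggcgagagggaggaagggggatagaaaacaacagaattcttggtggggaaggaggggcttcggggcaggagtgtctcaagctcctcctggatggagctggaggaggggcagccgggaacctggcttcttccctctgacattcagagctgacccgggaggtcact
Krt8: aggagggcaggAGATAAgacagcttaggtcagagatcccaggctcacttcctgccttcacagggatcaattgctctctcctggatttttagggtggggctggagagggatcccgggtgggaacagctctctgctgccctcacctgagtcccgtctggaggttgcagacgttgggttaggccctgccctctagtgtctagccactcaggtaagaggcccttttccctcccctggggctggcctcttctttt
Krt18: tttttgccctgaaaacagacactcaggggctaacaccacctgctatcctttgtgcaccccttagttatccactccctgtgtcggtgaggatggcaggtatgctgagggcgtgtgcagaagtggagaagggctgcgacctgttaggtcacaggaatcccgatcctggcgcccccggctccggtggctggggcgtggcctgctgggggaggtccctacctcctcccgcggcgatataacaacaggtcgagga
In Upk3b the capitals are the TEAD motif GGAATG read on the other strand, at bases -241 to -236 from the start. In Lrrn4 they are the same motif on the gene's strand, at bases -196 to -191. The GGAATG motif stood in 12.6% of 32851 promoter windows of the same length. In Krt8 the capitals are the GATA motif AGATAA at bases -239 to -234, which 9.99% of windows held. The 250 bases before Krt18 held none of the motifs searched on both strands, which also included WT1 (GCGTGGGAG, in 0.405% of windows), AP-1 (TGANTCA, 6.75%), a T-box motif (AGGTGTGA, 1.12%), SP1 (GGGCGG, 32.7%) and the TATA motif (TATAAA, 12.4%). None of these 5 was found in any of the 6 windows, and no 2 matches overlapped. The windows had a GC content between 54.0% (Tbx18) and 77.6% (Aldh1a2), against a median of 52.4% over all windows.

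The libraries held between 25035490 and 45243608 counts. Levels below are CPM, each count scaled to its library total, with the totals adjusted by the TMM method of edgeR over all 43 libraries. They are not adjusted for gene length, so levels of different genes are not compared. A level of 0 allows up to 3 counts in that library. Vegfa, the edited gene, was counted in every library, between 22.8 and 846 CPM, and since counts do not read the stop codon they do not check the genotype. The compartments were checked by their markers: 10 cardiomyocyte markers summed to between 70821 and 107977 CPM in CM libraries and 35.7 to 1314 CPM in EC libraries, and 10 endothelial markers to between 732 and 9608 CPM in EC libraries and 193 to 682 CPM in CM libraries. The EC library with 732 CPM, day 3 Q150X library 2, had barely more endothelial marker counts than CM. Some libraries stood apart. Heart library 1 of each genotype at homeostasis held the atrial genes Myl7 (509 and 446 CPM) and Sln (230 and 179 CPM), which the other homeostasis hearts had at or near 0. The day 7 wild-type heart 4 held 8 trophoblast markers at a summed 1343 CPM, against at most 4.0 CPM in the other hearts. Lung epithelial markers summed to 189 CPM in day 30 wild-type heart 3, 891 in Q150X heart 3 and 474 in Q150X heart 4, with at most 11.1 in the other hearts. That EC library held lymphocyte and thymocyte markers at 2730 CPM, against 4.96 to 25.3 CPM in the other EC libraries.

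In whole hearts the mesothelial surface genes Upk1b, Upk3b, Msln and Lrrn4 were low at homeostasis and higher on day 30 after MI in both genotypes. More mesothelial cells and more RNA per cell cannot be told apart in bulk libraries. Upk3b stood at 6.4, 0.149 and 0.0776 CPM in the 3 wild-type hearts at homeostasis, 1.73, 1.99, 0.350 and 0.886 on day 7 and 71, 59.1 and 17.7 on day 30. In the Q150X hearts it was 5.28, 0.849 and 0.805, then 5.82, 1.36, 1.71 and 8.87, then 23.5, 124, 60.3 and 17.4. Every day 30 heart was above every earlier heart of either genotype. The log2 fold change from homeostasis to day 30 was 4.45 ± 1.25 (SE) in wild type (edgeR adjusted p = 0.0361) and 4.59 ± 1.23 in Q150X (edgeR adjusted p = 0.0104). The rise came after day 7: day 30 against day 7 gave 5.29 ± 1.16 (edgeR adjusted p = 0.00334) and 3.64 ± 1.02 (edgeR adjusted p = 0.0132). Ordered by mean, the levels were 1.24 ± 0.756 (SD, n = 4) on day 7 in wild type, 2.21 ± 3.63 (n = 3) and 2.31 ± 2.57 (n = 3) at homeostasis, 4.44 ± 3.58 (n = 4) on day 7 in Q150X, 49.3 ± 28.0 (n = 3) and 56.3 ± 48.9 (n = 4) on day 30. Of these neighbours, only day 7 Q150X and day 30 wild type held ranges that did not overlap.

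Upk1b, the other uroplakin gene, went from 0.582, 0.372 and 0.0776 CPM at homeostasis to 2.17, 0.963, 0.350 and 1.03 on day 7 and 10.6, 25.6 and 4.79 on day 30 in wild type. In Q150X hearts the same times gave 0.434, 0.0326 and 0.0700, then 3.66, 1.11, 2.98 and 6.81, then 5.07, 72.0, 18.4 and 7.48. All 4 Q150X hearts of day 7 were above the 3 at homeostasis. Upk1b was the gene that had risen by day 7 in Q150X, with a log2 fold change of 4.36 ± 1.20 (edgeR adjusted p = 0.013), a call lost without homeostasis heart 2 (adjusted p = 0.0558) or 3 (0.0543). By day 30 its change from homeostasis was 5.28 ± 1.15 in wild type (edgeR adjusted p = 0.0101) and 7.16 ± 1.25 in Q150X (edgeR adjusted p = 0.000627).

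Msln was 3.20, 0.596 and 0.155 CPM at homeostasis, 2.91, 2.14, 0.584 and 5.06 on day 7 and 24.0, 69.7 and 9.80 on day 30 in wild type. The Q150X hearts gave 2.64, 0.784 and 0.420, then 12.4, 2.07, 8.13 and 20.8, then 10.4, 115, 39.3 and 13. The day 30 hearts were above homeostasis in both genotypes, and in Q150X their range overlapped that of day 7. Day 30 against homeostasis gave 4.69 ± 1.25 on the log2 scale in wild type (edgeR adjusted p = 0.0291) and 5.10 ± 1.24 in Q150X (edgeR adjusted p = 0.00587). Day 7 in Q150X gave 3.09 ± 1.16, which did not pass (edgeR adjusted p = 0.0582).

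Lrrn4 followed Upk3b most closely. It was 1.86, 0 and 0 CPM at homeostasis, 0.822, 0.451, 0.117 and 0.829 on day 7 and 15, 17.6 and 4.41 on day 30 in wild type. In Q150X it was 1.63, 0.261 and 0.0700, then 2.33, 0.312, 0.781 and 2.44, then 7.45, 33.2, 20.4 and 6.35. Again no day 30 heart overlapped an earlier one. Its log2 change from homeostasis to day 30 was 4.28 ± 1.24 in wild type (edgeR adjusted p = 0.0395) and 4.68 ± 1.23 in Q150X (edgeR adjusted p = 0.00867).

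**Figure D1:**
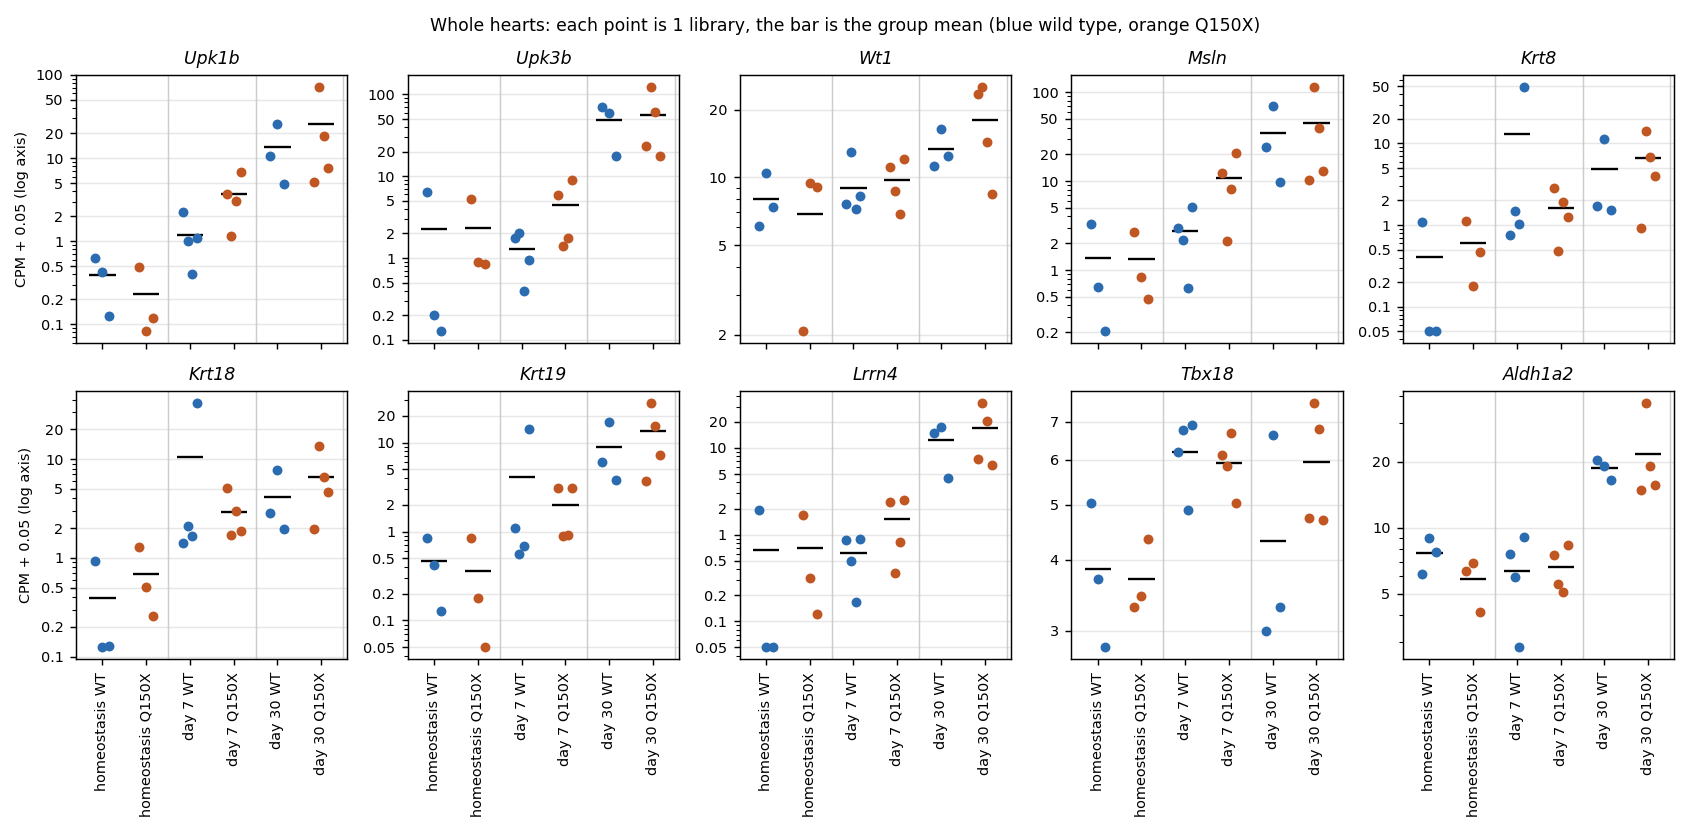
Levels of the 10 genes in the 21 whole-heart libraries, in CPM plus 0.05 on log axes that differ between panels. Each point is 1 library (blue wild type, orange Q150X) and each bar a group mean. In the Upk3b and Lrrn4 panels all day 30 points lie above all earlier points, and in the Krt8, Krt18 and Krt19 panels 1 day 7 wild-type heart lies far above its group.

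The keratin genes separated from the surface genes on day 7 in wild type. Krt8 was 0.705, 1.44, 0.992 and 49.4 CPM in the 4 wild-type hearts of day 7, Krt18 was 1.38, 2.05, 1.63 and 37.3, and Krt19 was 1.06, 0.511, 0.642 and 14.0. In all 3 the high value came from heart 4, the library with trophoblast markers, and the part of those cells in the keratin level was not tested. Krt18 was the gene called on day 7 in wild type, with a log2 fold change of 4.92 ± 1.35 (edgeR adjusted p = 0.0225). Without heart 4 the call was lost (edgeR adjusted p = 0.116), and it was lost as well without homeostasis heart 2 (0.0885) or 3 (0.0928). Without heart 4, Krt19 was higher on day 30 than on day 7 in wild type by 3.58 on the log2 scale (edgeR adjusted p = 0.0127), against 1.12 ± 1.04 with it.

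By day 30 the keratins were 1.65, 11.4 and 1.5 CPM (Krt8), 2.83, 7.64 and 1.91 (Krt18) and 6.05, 17.0 and 3.78 (Krt19) in wild type. The Q150X hearts held 0.871, 14.3, 6.84 and 3.99 for Krt8, 1.92, 13.5, 6.53 and 4.59 for Krt18 and 3.66, 28.1, 15.4 and 7.31 for Krt19. At homeostasis no heart of either genotype exceeded 1.23 CPM for any of the 3. Krt18 rose by 3.37 ± 1.23 (edgeR adjusted p = 0.0473) and Krt19 by 5.45 ± 1.42 (edgeR adjusted p = 0.00827) in Q150X. In wild type the changes were 3.56 ± 1.34 for Krt18 and 4.39 ± 1.37 for Krt19, neither of which passed (edgeR adjusted p = 0.0978 and 0.0541). Krt8 passed in neither genotype, with 3.75 ± 1.76 in wild type and 3.56 ± 1.65 in Q150X.

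The embryonic epicardial genes Wt1, Tbx18 and Aldh1a2 were counted in every heart, homeostasis included, and moved less. Aldh1a2 was 6.11, 8.90 and 7.72 CPM at homeostasis, 7.52, 5.90, 2.80 and 9.0 on day 7 and 20.2, 19.1 and 16.4 on day 30 in wild type. In Q150X it was 6.33, 6.89 and 4.10, then 7.44, 5.51, 5.06 and 8.30, then 14.8, 37.0, 19.1 and 15.5. Every day 30 heart was above every earlier heart, while day 7 and homeostasis overlapped. Its log2 change from day 7 to day 30 was 1.54 ± 0.33 in wild type (edgeR adjusted p = 0.00253) and 1.69 ± 0.32 in Q150X (edgeR adjusted p = 0.000713). From homeostasis to day 30 it was 1.29 ± 0.36 (edgeR adjusted p = 0.0343) and 1.89 ± 0.36 (edgeR adjusted p = 0.000859).

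Wt1 was 6.04, 10.4 and 7.37 CPM at homeostasis, 7.55, 12.9, 7.18 and 8.23 on day 7 and 11.2, 16.3 and 12.4 on day 30 in wild type, and 2.03, 9.40 and 9.0, then 11.1, 8.69, 6.85 and 12, then 23.5, 25.2, 14.3 and 8.38 in Q150X. The 3 wild-type day 30 hearts were just above the 3 at homeostasis, and in Q150X the ranges overlapped. Wt1 rose in Q150X by 1.38 ± 0.42 on the log2 scale (edgeR adjusted p = 0.0191), a call lost without day 30 heart 1 (adjusted p = 0.0518) or 2 (0.0719). The wild-type change was 0.74 ± 0.44 and did not pass (edgeR adjusted p = 0.277). Tbx18 stayed between 2.75 and 7.51 CPM in all 21 hearts. On day 30 it was 2.95, 6.59 and 3.25 in wild type and 4.68, 7.51, 6.76 and 4.65 in Q150X, against 4.98, 3.65 and 2.75 at homeostasis in wild type and 3.26, 3.40 and 4.31 in Q150X, and no comparison of times called it with all libraries and TMM scaling. Without day 30 heart 2 it was called lower on day 30 than on day 7 in wild type (edgeR adjusted p = 0.0148), and without homeostasis heart 1 higher on day 7 (0.95, edgeR adjusted p = 0.0479). DESeq2 called it higher on day 30 in Q150X (0.67, adjusted p = 0.0468). With library size alone as the scaling, it was called higher in Q150X on day 7 (log2 change 0.92) and day 30 (0.95, edgeR adjusted p = 0.0267).

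**Figure D2:**
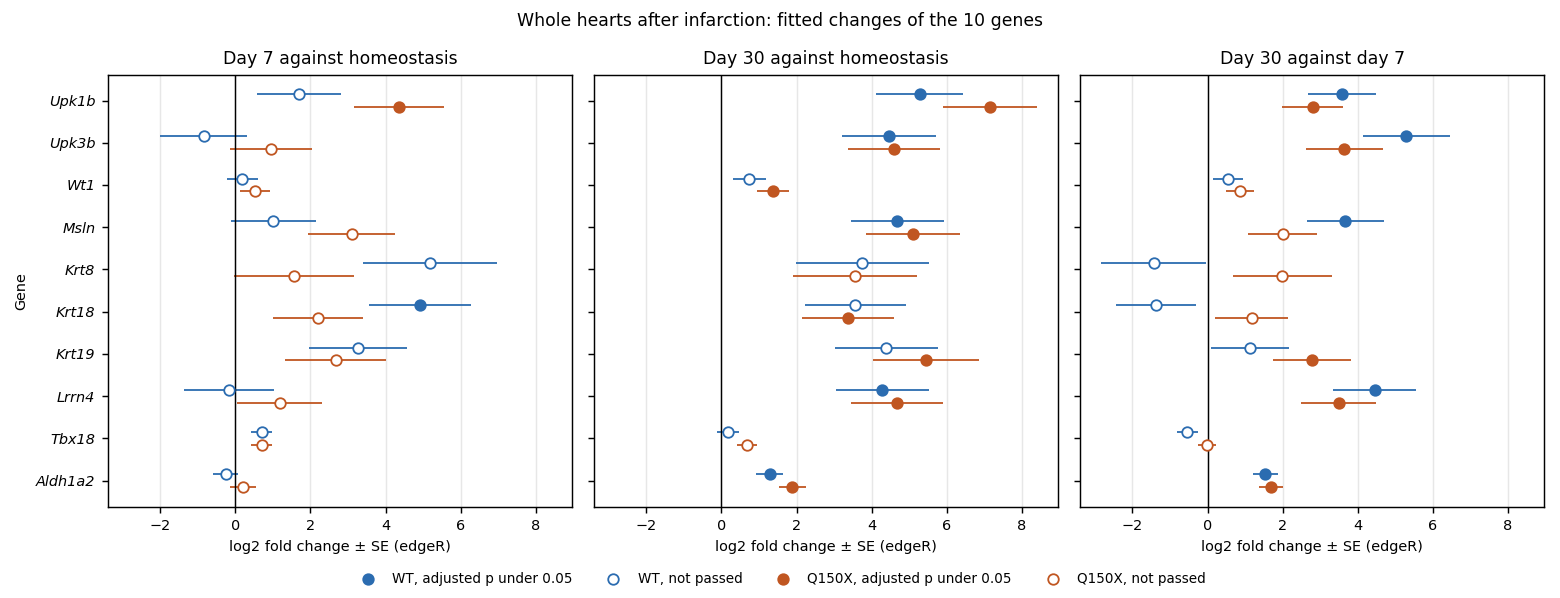
Fitted log2 fold changes with standard errors of the 10 genes in whole hearts between 3 pairs of times (blue wild type, orange Q150X; filled points have an edgeR adjusted p under 0.05). In the day 30 panels Upk1b, Upk3b, Lrrn4 and Aldh1a2 are filled in both genotypes, while Tbx18 is open throughout.

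As a set, 1 of 10 genes was higher on day 7 in wild type (background 7.65% of 17845 genes tested called higher) and 1 of 10 in Q150X (background 13.8%). On day 30, 5 of 10 were higher than at homeostasis in wild type (background 5.45%), namely Upk1b, Upk3b, Msln, Lrrn4 and Aldh1a2, and 8 of 10 in Q150X (background 15.6%), namely these 5 with Wt1, Krt18 and Krt19. Day 30 against day 7 called 5 of 10 higher in wild type (background 13.9%) and 5 of 10 in Q150X (background 14.9%), and no comparison of times in hearts called a member lower. The background of genes called lower was 6.07% on day 7, 3.49% on day 30 and 16.1% for day 30 against day 7 in wild type, and 12.3%, 14.2% and 16.5% in Q150X. The median log2 change from homeostasis to day 30 was 4.02 over the members in wild type, beside -0.02 over all genes, and 4.08 in Q150X, beside -0.03. By ranges, 9 of 10 genes did not overlap between day 30 and homeostasis in wild type (background 16.1% of genes higher without overlap) and 8 of 10 in Q150X (background 17.7%).

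These day 30 calls rested on few libraries in wild type. Leaving out 1 library at a time left 0 of 10 called higher on day 30 against homeostasis without homeostasis heart 2 or 3, 1 without day 30 heart 2, 2 without day 30 heart 1 or 3, and 5 without homeostasis heart 1. Aldh1a2, with groups that do not overlap, missed the threshold without any 1 of the 6 hearts (edgeR adjusted p from 0.0546 to 0.12), Upk3b and Lrrn4 without any but homeostasis heart 1, Msln without homeostasis heart 2 or 3 or day 30 heart 2, and Upk1b without homeostasis heart 2 or 3. The size of the change rested on homeostasis heart 1: without it the log2 change to day 30 in wild type was 8.70 for Upk3b, 6.49 for Msln and 5.89 for Upk1b, and in Q150X 6.08 for Upk3b and 6.19 for Msln. For Lrrn4 the other 2 wild-type homeostasis hearts held 0 counts, so no fold is given without heart 1. In Q150X, Krt18 was lost without any heart but day 30 heart 1 (edgeR adjusted p from 0.0525 to 0.162) and Upk3b without homeostasis heart 2 (0.0546) or 3 (0.0568), while the calls for Upk1b, Msln, Krt19, Lrrn4 and Aldh1a2 were kept without any 1 heart. For day 30 against day 7, Upk3b, Lrrn4 and Aldh1a2 passed in both genotypes in every alternative run, Msln in wild type was lost without day 30 heart 2 (0.0871), Upk1b in Q150X without day 30 heart 2 (0.119), and Krt19 in Q150X without any heart but day 30 heart 1. Without the 3 day 30 hearts that held lung markers, an alternative added after seeing the data, 1 of 10 passed in wild type (Upk1b) and 7 of 10 in Q150X. Day 30 against day 7 gave 5 of 10 in each genotype without those hearts. In wild type they were the 5 called with all hearts, and in Q150X Krt19 was lost (edgeR adjusted p = 0.112) and Wt1 was called (1.31, edgeR adjusted p = 0.043).

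At homeostasis the hearts numbered 1 stood apart from the others for most of the 10 genes. Hearts numbered 1 of both genotypes, in which 7 atrial markers summed to 2913 and 2845 CPM against 49.8 to 76.0 in the other 4, were above those 4 for 7 of 10 genes, beside 26.3% of the 17845 genes tested: Upk3b at 5.28 to 6.4 CPM against 0.0776 to 0.849, Msln at 2.64 to 3.20 against 0.155 to 0.784, and Lrrn4 at 1.63 to 1.86 against 0 to 0.261, with Upk1b, Krt8, Krt18 and Krt19 alike. Wt1 went the other way, at 2.03 and 6.04 CPM in hearts 1 against 7.37 to 10.4 in the other 4. The adipocyte gene Adipoq, picked after its values were seen, was also higher in hearts 1, at 10.9 and 8.54 CPM against at most 0.31. The full list of 9 adipocyte markers summed to 588 to 620 CPM in wild type and 453 to 560 in Q150X at homeostasis. On day 30 it summed to 383 to 572 and 387 to 525 CPM. Most counts of that list over all libraries were of Fabp4. The part of atrial or fat tissue in these levels was not tested. In the day 30 hearts the atrial markers summed to 243 to 1167 CPM, with Myl7 at 2.70 or less and Sln at 0.150 or less, and Adipoq was 0.0578 to 17.7 CPM.

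On day 30 hearts of the same genotype spread widely. The Q150X heart 2 was the highest of the 7 day 30 hearts for all 10 genes. The ratio of the highest to the lowest heart ran from 2.50 (Aldh1a2) and 2.55 (Tbx18) to 15 (Upk1b) and 16.4 (Krt8). That highest heart held lung markers at a summed 4.6 CPM, beside 189 to 891 in the 3 hearts with lung markers, and its Adipoq level of 17.7 CPM was the highest of the hearts. The part of lung or fat tissue in the members' levels on day 30 was not tested.

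No gene of the 10 passed between Q150X and wild-type hearts at any time. On day 30 all 10 fitted differences (Q150X minus wild type) were above 0, from 0.20 (Upk3b) to 0.91 (Upk1b) on the log2 scale, with edgeR adjusted p from 0.456 to 0.949, and 0 of 10 genes passed (background 0.443%, or 79 genes). The 95% interval was -0.84 to 2.66 for Upk1b, -1.66 to 2.39 for Msln and -0.47 to 0.92 for Aldh1a2. On day 7 the differences ran from -3.02 (Krt8) to 2.03 (Msln), and at homeostasis from -0.97 (Upk1b) to 0.87 (Krt18), with 0 of 10 genes called at either time (background 0% at each). The day 7 difference of Krt8 rested on wild-type heart 4, at 49.4 CPM, with the other 3 wild-type hearts at 0.705 to 1.44 CPM. Without that heart it was 0.61, with Krt18 at 0.78 and Krt19 at 1.41 in place of -1.86 and -1.05, so all 3 keratins changed direction. At an unadjusted p under 0.05 the edgeR counts were 2 of 10 on day 7 (Krt8 and Msln), beside 561 of 17845 genes. They were 0 of 10 on day 30 and at homeostasis, beside 2481 and 504 genes, and DESeq2 called 0 of 10 at each time. Krt8 was over 0.05 without wild-type heart 4 or Q150X heart 2, 3 or 4 (unadjusted edgeR p from 0.0612 to 0.568). Msln was over 0.05 without wild-type heart 1, 2 or 3 or Q150X heart 1, 3 or 4 (unadjusted edgeR p from 0.0515 to 0.147). The interaction term, which tests whether the change after MI differs between genotypes, passed for no gene on day 7 (0 of 10, background 0%) or day 30 (0 of 10, background 0%). DESeq2 called 0 at both times. The edgeR count at an unadjusted p under 0.05 was 0 of 10 at both, beside 588 and 1724 of 17845 genes.

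Across the 21 hearts the genes formed tight and loose pairs. Pearson's r of log2(CPM + 0.5) was 0.987 for Upk3b with Lrrn4, 0.970 for Upk1b with Msln and 0.967 for Krt18 with Krt8, and it was lowest for Aldh1a2 with Tbx18, at 0.094. With the mean of the other 9 genes, Krt19 (0.953), Msln (0.945) and Upk1b (0.935) ran closest, and Wt1 (0.569) and Tbx18 (0.460) least close. These values describe 21 libraries that share times, surgery and outlying libraries, and carry no test. The 6 genes outside the set whose levels were most like the mean of the members were Folr1 (r = 0.947), Tuft1 (0.932), Prss12 (0.932), Cyp2s1 (0.929), Ildr2 (0.927) and Muc16 (0.923) over the same 21 libraries. They were picked by this likeness, so a rise with the members on day 30 is not a separate result. Muc16, which encodes the CA125 mucin, went from 0 to 0.655 CPM at homeostasis in wild type to 4.53 to 16.1 on day 30, and from 0.261 to 0.434 to 3.24 to 51.9 in Q150X.

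**Figure D3:**
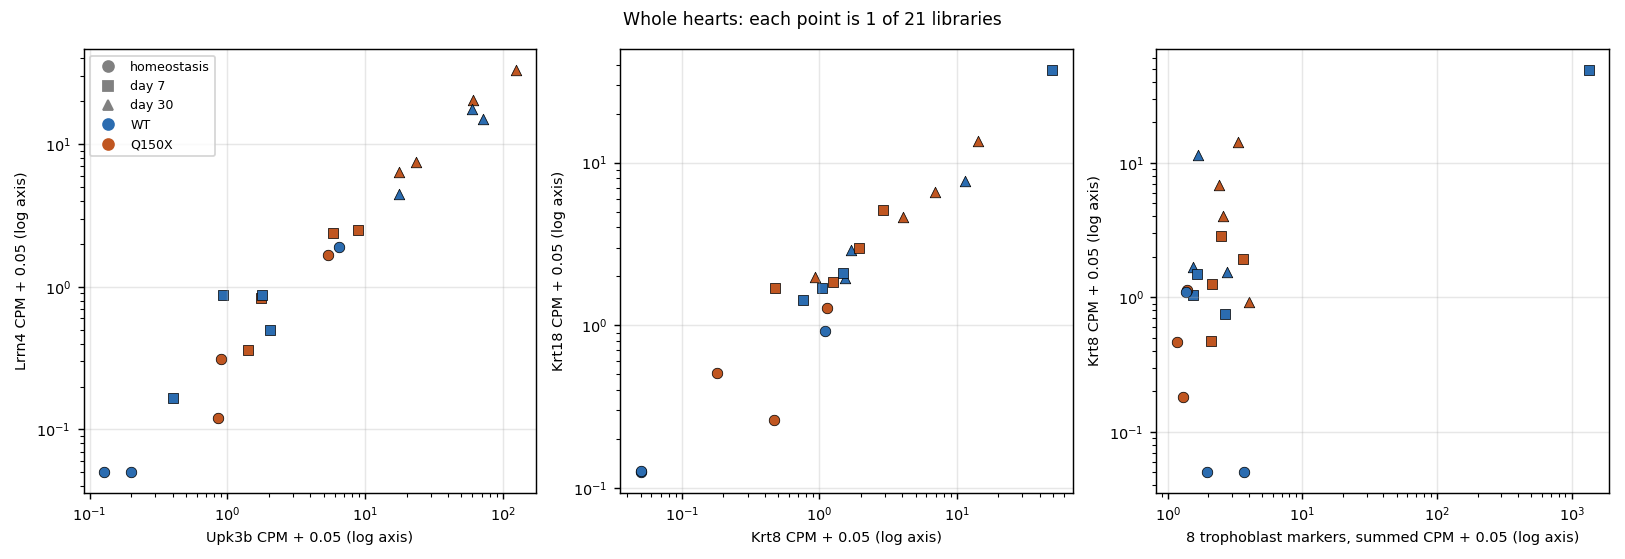
Levels in the 21 whole hearts, in CPM plus 0.05 on log axes: Lrrn4 against Upk3b, Krt18 against Krt8, and Krt8 against the sum of 8 trophoblast markers (circles homeostasis, squares day 7, triangles day 30; blue wild type, orange Q150X). Upk3b and Lrrn4 lie along 1 diagonal with day 30 at the top, while the highest Krt8 and Krt18 point is the day 7 wild-type heart with the trophoblast markers at 1343 CPM.

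A wider list held 16 further mesothelial and epicardial genes. Of the 15 tested in hearts, 8 rose by day 30 in wild type and 13 in Q150X, beside 5.45% and 15.6% of all genes, with none lower and the other 7 and 2 not passing. The median log2 change was 2.50 in wild type and 3.28 in Q150X, beside -0.02 and -0.03 over all genes. On day 7, 2 of 15 were higher in wild type and 5 of 15 in Q150X, beside 7.65% and 13.8%. Pdpn, which encodes podoplanin, rose on day 30 by 2.50 ± 0.35 in wild type (edgeR adjusted p = 0.000297) and had already risen on day 7, by 1.64 ± 0.33 (edgeR adjusted p = 0.00281). Muc16 rose by 5.10 ± 1.11 (edgeR adjusted p = 0.00921), and in Q150X Rspo1, a Wnt signal enhancer, rose by 5.15 ± 0.89 (edgeR adjusted p = 0.00049). Of 11 markers of other epithelia 5 were tested, and 0 rose on day 30 in wild type and 3 in Q150X, among them Cdh1, the E-cadherin gene (5.05 ± 1.22, edgeR adjusted p = 0.00476); their sum was 1.47 to 12.4 CPM on day 30 against 0.81 to 1.75 at homeostasis. Markers of other cells moved with them: 5 of 10 fibroblast and 6 of 10 macrophage markers rose on day 30 in wild type, and 8 and 10 of 10 in Q150X. The fibroblast markers summed to between 4245 and 8349 CPM on day 30 against 1785 to 4884 at homeostasis, the macrophage markers to 736 to 2051 against 249.7 to 495, and the part of these cells in the members' levels was not tested.

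Aldh1a2 belongs to the retinoic acid pathway. Of 15 other pathway genes tested in hearts, 2 were higher and 0 lower on day 30 in wild type, beside 5.45% and 3.49% of all genes. In Q150X 4 were higher and 2 lower, beside 15.6% and 14.2%, so the share called lower was near that of all genes. The median log2 change was 0.34 in wild type and 0.35 in Q150X. Aldh1a1, another retinaldehyde dehydrogenase gene, rose on day 30 by 1.49 ± 0.33 in wild type (edgeR adjusted p = 0.0104) and 3.01 ± 0.34 in Q150X (edgeR adjusted p = 3.86e-05). Rdh10, which makes the substrate retinaldehyde, rose by 0.75 ± 0.20 in wild type (edgeR adjusted p = 0.0255). Cyp26a1, which degrades retinoic acid, rose by 4.52 ± 0.92 in Q150X (edgeR adjusted p = 0.00149). Dhrs3, which reduces retinaldehyde back to retinol, was higher on day 7 by 1.03 ± 0.14 in wild type (edgeR adjusted p = 9.33e-05).

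The list of 15 genes of epicardial transition and signalling held calls in both directions. On day 30, 1 was higher and 1 lower in wild type, beside 5.45% and 3.49% of all genes. In Q150X 5 were higher and 2 lower, beside 15.6% and 14.2%. Apart from the genes higher in Q150X, these counts are near the shares of all genes. Postn, which encodes the matrix protein periostin, rose by 2.65 ± 0.50 in wild type (edgeR adjusted p = 0.00364) and 3.58 ± 0.51 in Q150X (edgeR adjusted p = 0.000135). Cxcl12, a chemokine gene, fell in wild type, with -0.97 ± 0.22 (edgeR adjusted p = 0.0122). Twist1, a transcription factor of epithelial to mesenchymal transition, rose in Q150X by 2.13 ± 0.37 (edgeR adjusted p = 0.000494).

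Among uninjured wild-type libraries, Wt1 was highest in the endothelial cells. It was 70.1, 65.8 and 66.6 CPM in the 3 EC libraries, 6.04, 10.4 and 7.37 in whole hearts and 3.41, 4.55 and 1.06 in CM, with no overlap between the 3 compartments. EC were above hearts by 3.00 ± 0.38 on the log2 scale (edgeR adjusted p = 4.05e-05) and above CM by 4.38 ± 0.41 (edgeR adjusted p = 2.97e-06). CM were below hearts, with -1.38 ± 0.39 (edgeR adjusted p = 0.019), a call lost without heart 2 (0.0595). Aldh1a2 had another order, at 6.11, 8.90 and 7.72 CPM in hearts, 1.94, 1.58 and 1.59 in EC and 0.235, 0.542 and 0 in CM. It was lower in EC than in hearts (-2.24 ± 0.48, edgeR adjusted p = 0.00167) and lower again in CM than in EC, with 2.63 ± 0.62 for EC against CM (edgeR adjusted p = 0.00256).

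Krt19 was 1.28, 0.808 and 0.531 CPM in uninjured wild-type EC and 0, 0.108 and 0 in CM, where the 3 libraries held 2 counts in all. The pooled ratio of EC to CM was 24.5, with a 95% counting interval of 6.66 to 204 that covers counting error only, and the difference passed (edgeR adjusted p = 0.00436). Tbx18 stood at 4.98, 3.65 and 2.75 CPM in hearts, 4.32, 4.85 and 3.37 in EC and 1.53, 2.44 and 3.88 in CM, with overlapping ranges. With library size alone as the scaling, Tbx18 was also called lower in CM than in hearts and in EC, and this scaling moved the median of all genes for EC against CM from 0.17 to 1.51. Of 9 genes tested (Krt8 was too low), 1 was higher and 1 lower in EC than in hearts (background 31.5% and 33.2%), 3 were lower in CM than in hearts (background 21.3%), and 3 were higher in EC than in CM (background 39.4%). The shares for EC against hearts and for EC against CM are below their background.

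In the endothelial fraction on day 3 after MI, the mesothelial genes were counted in all 4 libraries and Wt1 was lower. Upk1b was 0.291, 0 and 0.0171 CPM at homeostasis and 6.84 and 9.90 on day 3 in wild type, and 0, 0.0184 and 0, then 9.49 and 3.05 in Q150X. Krt8 was 0.407, 0.0376 and 0, then 7.62 and 8.57 in wild type, and 0, 0.0367 and 0.0325, then 10.4 and 3.31 in Q150X. Aldh1a2 was 1.94, 1.58 and 1.59, then 26.5 and 50.9 in wild type, and 1.02, 1.28 and 0.455, then 24.0 and 3.59 in Q150X. For 8 of 10 genes, these 3 included, the day 3 libraries lay above all homeostasis libraries of the same genotype, beside 26.7% of all genes in wild type and 23.3% in Q150X. In wild type Upk1b rose by 6.48 ± 1.13 (edgeR adjusted p = 0.0107), Krt8 by 5.91 ± 1.15 (0.0163), Krt19 by 3.11 ± 0.55 (0.0112) and Aldh1a2 by 4.63 ± 0.80 (0.01). In Q150X Krt8 rose by 8.15 ± 1.37 (edgeR adjusted p = 0.00436), Aldh1a2 by 4.02 ± 0.79 (0.00756) and Krt19 by 3.43 ± 0.56 (0.00398), and Upk1b, with 1 count in all at homeostasis, had a pooled ratio of 965 (95% counting interval 172 to 38171, edgeR adjusted p = 0.0031).

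The counts were 4 of 10 higher in wild type (background 6.71% of 18223 genes) and 7 of 10 higher and 1 lower in Q150X (background 18.7% and 15.1%). With all libraries, Msln, Upk3b and Lrrn4 passed in Q150X and not in wild type. In wild type Msln was 13.3 and 20.4 CPM on day 3 against 1.94, 0.113 and 0.0343 and did not pass (edgeR adjusted p = 0.0693). Msln and Lrrn4 passed in wild type without homeostasis library 1 (edgeR adjusted p = 0.0257 and 0.0255), and without the library with lymphocyte markers (0.0253 and 0.0473). DESeq2 called Msln (adjusted p = 0.0085) and Upk3b (0.043) there. No interaction passed for any of the 10 genes (0 of 10, background 0%, and 0 by DESeq2), so the response was not shown to differ between genotypes. The edgeR count at an unadjusted p under 0.05 was 0 of 10, beside 2291 of 18223 genes. Without day 3 Q150X library 2 the interaction of Wt1 was -0.92 on the log2 scale. Without library 1, which leaves only the library with lymphocyte markers, it was -3.47 for Wt1, -3.94 for Tbx18 and -2.81 for Aldh1a2. Each of these fits holds 1 Q150X library on day 3. Leaving out 1 library could end each of the 4 wild-type calls, with the largest edgeR adjusted p (0.0704 to 0.0942) without day 3 library 2. The wild-type count fell to 0 without day 3 library 2 and to 1 without homeostasis library 2 or 3. The Q150X count fell to 5 without homeostasis library 3, when Lrrn4 (edgeR adjusted p = 0.0511), Msln (0.0507) and Upk3b (0.0824) were lost.

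Wt1 was lower in all 4 day 3 libraries. It was 70.1, 65.8 and 66.6 CPM at homeostasis and 27.6 and 31.3 on day 3 in wild type, and 72.3, 79.1 and 71.9, then 17.1 and 3.53 in Q150X, with no overlap in either genotype. The log2 change was -2.74 ± 0.61 in Q150X (edgeR adjusted p = 0.0118). In wild type it was -1.07 ± 0.56, which did not pass with all libraries (edgeR adjusted p = 0.277) and passed without the Q150X library that held lymphocyte markers (-1.08, edgeR adjusted p = 9.51e-06). The 10 endothelial markers moved alongside, from 7988 to 9608 CPM in the 6 homeostasis libraries to 4794 and 4910 on day 3 in wild type and 3238 and 732 in Q150X. Per 1000 CPM of endothelial markers, Wt1 was 7.29 to 9.25 at homeostasis and 4.83 to 6.38 on day 3.

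**Figure D4:**
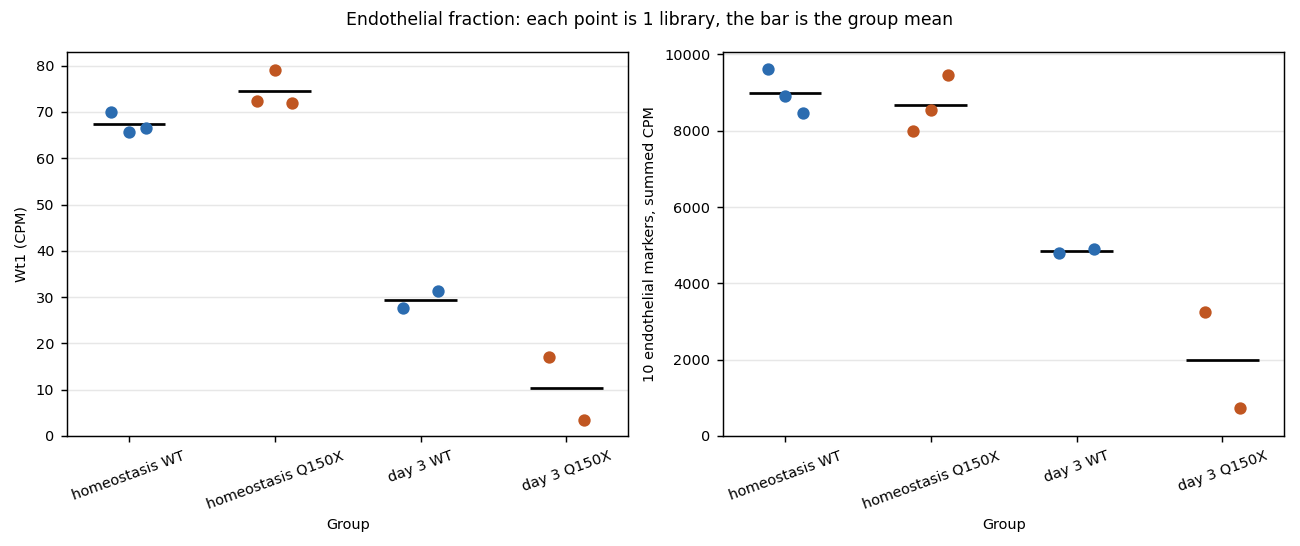
Wt1 and the sum of 10 endothelial markers in the EC libraries, in CPM on linear axes from 0. Each point is 1 library (blue wild type, orange Q150X) and each bar a group mean; both quantities are lower in all 4 day 3 libraries than in the 6 homeostasis libraries, and lowest in Q150X library 2.

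Between genotypes on day 3 in EC, 0 of 10 genes passed by edgeR (background 0%) and 0 by DESeq2. At an unadjusted p under 0.05 edgeR called 1 of 10, beside 4223 of 18223 genes. Wt1 was lower in both Q150X EC libraries than in both wild-type ones, with a log2 difference of -1.54 ± 0.61, which did not pass (edgeR adjusted p = 0.191). Without the lymphocyte-marker library, leaving 1 Q150X library that is assumed to vary like the other groups, the difference was -0.79 and passed (edgeR adjusted p = 0.0114). Without the other Q150X library, which leaves only the lymphocyte-marker library, the difference of Wt1 was -3.34. The differences of Aldh1a2, Tbx18 and Krt19 were then -3.71, -3.58 and -1.49. The endothelial markers stood in the same order (4794 and 4910 CPM in wild type, 3238 and 732 in Q150X), and their part in the Wt1 difference was not tested.

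The day 3 EC libraries also differed from the homeostasis ones in makeup. Macrophage markers summed to 540 to 4798 CPM against 73.4 to 141, and neutrophil markers to 66.7 to 903 against 1.97 to 4.21. Markers of other epithelia summed to 4.88 to 19.5 CPM against 0.62 to 0.936. Fibroblast markers were 2670 to 3218 CPM against 837 to 1203 in wild type, and overlapped in Q150X (295 to 1681 against 680 to 1143). The part of these cells in the members' levels was not tested. Xist, transcribed from the inactive X chromosome of female cells, was 321 to 842 CPM against 0.84 or less. Sex and time after MI therefore cannot be told apart in EC. At homeostasis 0 of 10 genes passed between the genotypes in EC by edgeR (background 0%) and 0 by DESeq2. The edgeR count at an unadjusted p under 0.05 was 1 of 10, beside 168 of 18223 genes.

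**Figure D5:**
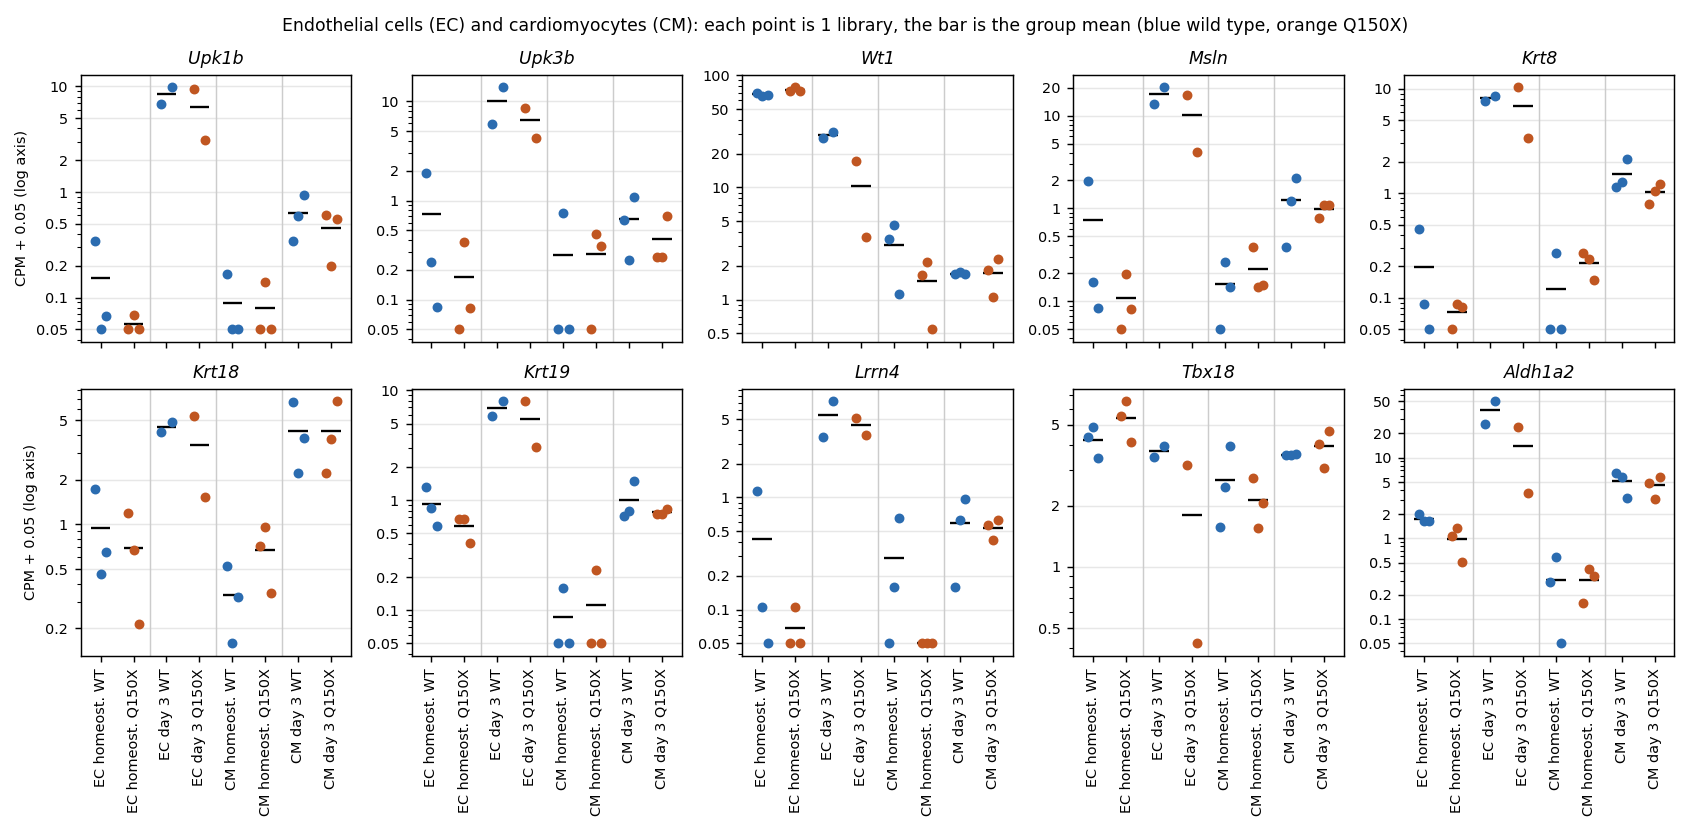
Levels of the 10 genes in the 22 EC and CM libraries, in CPM plus 0.05 on log axes that differ between panels. Each point is 1 library (blue wild type, orange Q150X) and each bar a group mean; 8 genes lie higher in all day 3 EC libraries than at homeostasis of the same genotype, while Wt1 lies lower.

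In cardiomyocyte libraries most of these genes were low at homeostasis, and 6 of them rose on day 3 in both genotypes. Aldh1a2 was 0.235, 0.542 and 0 CPM at homeostasis and 6.50, 5.73 and 3.15 on day 3 in wild type, and 0.110, 0.366 and 0.295, then 4.76, 3.06 and 5.65 in Q150X. Krt18 was 0.471, 0.108 and 0.277, then 6.64, 2.17 and 3.75 in wild type, and 0.663, 0.915 and 0.295, then 2.18, 3.69 and 6.73 in Q150X. The day 3 libraries were above all homeostasis libraries for both genes. The log2 change of Aldh1a2 was 4.26 ± 0.62 in wild type (edgeR adjusted p = 0.00044) and 3.99 ± 0.61 in Q150X (edgeR adjusted p = 0.000367). That of Krt18 was 3.80 ± 0.62 (edgeR adjusted p = 0.00105) and 2.65 ± 0.55 (edgeR adjusted p = 0.00283). Its keratin partner Krt8 rose by 4.21 ± 0.81 in wild type (edgeR adjusted p = 0.00279), from 0, 0.217 and 0 to 1.11, 1.22 and 2.09 CPM.

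In all, 6 of 10 genes were higher on day 3 in wild-type CM (background 10.1% of 15169 genes) and 7 of 10 in Q150X CM (background 14.9%), and none was lower (background 7.22% and 12.1%). The 6 shared genes were Aldh1a2, Krt18, Krt19, Krt8, Msln and Upk1b. Several of these folds rest on a handful of counts. Krt19 and Upk1b had 2 counts each over the 3 wild-type homeostasis libraries, and their pooled ratios were 27.7 (95% counting interval 7.42 to 232) and 16.8 (4.42 to 142). Lrrn4, called in Q150X alone, had 0 counts in the 3 Q150X homeostasis libraries and was at least 9.80-fold higher on day 3, taking the floor of 3 counts over the group. The median log2 change over the members was 3.56 in wild type and 2.54 in Q150X, the latter also with Lrrn4 at its bound, beside -0.01 and 0.00 over all genes. The Q150X count fell to 2 (Aldh1a2 and Krt18) without homeostasis library 3 and to 4 without day 3 library 3. In wild type Msln was lost without homeostasis or day 3 library 3 (edgeR adjusted p = 0.0531 and 0.0598) and Upk1b without library 2 or 3 of either time (0.0625 to 0.118).

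Wt1 and Tbx18 passed in neither genotype in CM. Wt1 was 1.62, 1.70 and 1.62 CPM on day 3 in wild type and 1.77, 0.997 and 2.27 in Q150X, against 3.41, 4.55 and 1.06 at homeostasis in wild type and 1.60, 2.11 and 0.492 in Q150X. Markers of other cells rose in the same CM libraries: the macrophage markers summed to 171 to 468 CPM on day 3 against 3.64 to 17.7, and the fibroblast markers to 575 to 1192 against 47.3 to 235. The part of these cells in the members' levels was not tested. No gene of the 10 passed between genotypes in CM at homeostasis, on day 3 or in the interaction (0 of 10, background 0% in each). DESeq2 called 0 of 10 in each. The edgeR counts at an unadjusted p under 0.05 were 1, 0 and 1 of 10, beside 2009, 254 and 1186 of 15169 genes.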

How the data were processed

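Total RNA was extracted with Trizol and sequenced on Illumina instruments, per the labels' protocols. The authors deposited 1 table of raw gene counts for the 43 libraries, and HISAT2, kallisto and build GRCm39 are named in the submitters' processing notes; the sources used here do not give versions, strand setting or the role of each tool, so a gene that overlaps another on the opposite strand could share its reads. Groups came from the labels.

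The counts were fitted with edgeR 4.0.16 in R 4.3.3 (TMM scaling, filterByExpr with a minimum count of 10 and a minimum total of 15, robust quasi-likelihood F-test) in 4 fits: 21 hearts, 10 EC, 12 CM, and the 9 uninjured wild-type libraries. Genes passed at a Benjamini-Hochberg adjusted p under 0.05 over all genes of a fit. All 10 members passed the filter in the first 3 fits and 9 in the fourth. SE is the log2 fold change divided by the square root of F.

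The genes named are the 10 members, Vegfa, up to 3 called genes with the smallest adjusted p of each further list (wider mesothelial, retinoic acid, epicardial transition, other epithelia), and the 6 genes most like the members. Myl7, Sln, Adipoq and Xist were named after their values were seen. Members and lists were chosen with earlier results of these data known. DESeq2 1.42.0, other scalings, no filter, smaller fits, a replicate block and left-out libraries were alternatives. Promoters were read from the RefSeq table; counting intervals are 95% and exact, and intervals of fitted differences are 95% from the edgeR standard error and its t quantile.

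Same-numbered libraries of the 2 genotypes deviated together in homeostasis hearts (r of 0.674, 0.448 and 0.478 across genes) and not consistently in the other settings. Each deviation is from the group mean, so the libraries numbered 1, which stood apart in both genotypes, raise the r of the other numbers too. These values therefore cannot tell whether the numbers pair the libraries. No 2 of the 47 within-group pairs held identical counts or differed by less than sampling noise. In data simulated from these libraries the fit recovered 54% of 2-fold and 84% of 4-fold changes for day 30 against homeostasis in wild-type hearts (17845 genes, 200 changed). It recovered 0% and 45% for wild-type EC on day 3 (18223 genes), and 67% and 91% for wild-type CM on day 3 (15169 genes). The changed genes were drawn from those with a mean above 1 CPM over the libraries of the fit. In CM the group means of Upk1b, Upk3b, Lrrn4 and Krt19 were all below that (at most 0.578, 0.607, 0.539 and 0.956 CPM). Msln and Krt8 reached group means of 1.18 and 1.47 CPM on day 3 in wild type, with at most 0.174 and 0.167 at homeostasis. Their means over the CM libraries were below 1 CPM too. The recovery rates in CM therefore do not describe these genes.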

Additional observations from a re-analysis of the deposited data

Results flagged for a closer look

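In a check for single libraries that lie far from their group (Dixon's gap ratio), 3 of 30 groups of 4 hearts tested over the 10 genes stood out. Independent tests would give about 1 in 20 by chance, or 1.5, but these tests share hearts and are not independent. All 3 groups that stood out were keratins in 1 library, day 7 wild-type heart 4: Krt8 at 49.4 CPM, Krt18 at 37.3 CPM and Krt19 at 14.0 CPM. That library also held trophoblast markers at 1343 CPM. The part of those cells in the keratin levels was not tested.

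The mean of Tbx18 lay on opposite sides of homeostasis in the 2 isolated fractions on day 3. In wild type its mean differed from homeostasis by -0.519 CPM in EC and by 0.901 CPM in CM, and in Q150X by -3.62 CPM in EC and by 1.79 CPM in CM. The wild-type ranges of day 3 and homeostasis overlapped in EC (3.45 to 3.88 against 3.37 to 4.85 CPM) and in CM (3.49 to 3.55 against 1.53 to 3.88). In Q150X they overlapped in neither fraction. Sex and time after MI cannot be told apart in EC. The difference between fractions was not tested, and none of these changes passed within its fraction by edgeR with all libraries and TMM scaling. Alternatives called Tbx18 in Q150X: in EC with library size alone (log2 change -1.93, edgeR adjusted p = 0.0325), and in CM by DESeq2 (0.84, adjusted p = 0.049) and with library size alone (1.09, edgeR adjusted p = 0.0216). Without day 3 library 1 the log2 change in Q150X EC was -4.00. That fit left 1 day 3 Q150X EC library, which held lymphocyte and thymocyte markers at 2730 CPM and endothelial markers at 732 CPM. Upk3b in wild-type hearts was -0.971 CPM from the homeostasis mean on day 7 and 47.1 CPM above it on day 30. The homeostasis mean rested on heart 1 (6.4 CPM, with 0.149 and 0.0776 in the other 2), and all 4 day 7 hearts (0.350 to 1.99 CPM) lay below heart 1 and above the other 2. Without heart 1 the fitted day 7 change of Upk3b was 3.41 in place of -0.84 on the log2 scale, so its direction turned, and neither value passed (edgeR adjusted p = 0.238 and 0.678). The day 7 and day 30 changes share the homeostasis hearts, and the direct test of day 30 against day 7 gave a log2 change of 5.29 ± 1.16 (edgeR adjusted p = 0.00334).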

How the results depend on the processing

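Of 58 calls for single genes, 26 held in every alternative run for them; over 772 refits 646 kept the call, 126 lost it and 0 changed direction. The count of genes called on day 7 in wild-type hearts (1) became 0 without the filter, with the replicate block or with the compared groups alone, and 3 by DESeq2; in Q150X (1) it became 3 with library size alone or without libraries that stand apart, and 2 by DESeq2 or with the compared groups alone. On day 30 in wild-type hearts (5) it became 1 without the filter, 3 with the compared groups alone, 8 without libraries that stand apart, and 1 without the hearts with lung markers. For EC on day 3 the wild-type count (4) became 2 with the replicate block, 7 by DESeq2 and 8 without the library that stands apart, and the Q150X count (8) became 4 with the compared groups alone, losing Aldh1a2, Krt19, Upk3b and Wt1. Without that library the genotype contrast and the interaction on day 3 in EC each went from 0 to 1 (Wt1). CM at homeostasis went from 0 to 1 between genotypes without the filter (Lrrn4). That gene had 15 counts over the wild-type libraries there, 13 of them in 1 library, and 0 in Q150X. EC against CM went from 3 to 5 with library size alone, and CM against hearts from 3 to 1 with the compared groups alone.

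With 1 library left out at a time, the counts in wild-type hearts ranged from 0 to 2 (day 7), 0 to 5 (day 30) and 5 to 6 (day 30 against day 7), and in Q150X from 0 to 2, 6 to 7 and 3 to 5, with 3 without day 30 heart 2. In EC they ranged from 0 to 5 (wild type), 5 to 9 (Q150X), 0 to 4 (genotypes, day 3) and 0 to 3 (interaction). In CM they ranged from 4 to 6 and 2 to 6. Between compartments they ranged from 2 to 4 (EC against hearts), 1 to 3 (CM against hearts) and 3 to 4 (EC against CM); the counts for the other contrasts remained 0. The causes of these shifts were not tested. The replicate block changed the count by over 1.5 times in no contrast other than those given. In homeostasis hearts, where the libraries numbered 1 stood apart in both genotypes, 0 of 10 passed between genotypes with and without it. Library size alone moved the median of all genes from -0.08 to -0.77 for CM against hearts, from 0.01 to 0.66 for EC against hearts and from -0.03 to 0.24 for Q150X hearts on day 30. Over all genes, the 79 genotype calls on day 30 became 454 by DESeq2, 28 with the replicate block and 0 with the compared groups alone, and the 1594 calls for day 30 in wild type became 2769, 1654 and 715. Where edgeR called 0 genes between genotypes over the whole table, DESeq2 called 3 and 4 in hearts at homeostasis and on day 7, 1 and 2335 in EC at homeostasis and on day 3, and 258 and 2 in CM.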
